A study of Mus musculus with 18 samples.

Results

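Complex I of the respiratory chain, NADH:ubiquinone oxidoreductase, is built from subunits of both genomes, and the nuclear-encoded ones carry the Nduf names. All rows of the deposited count table whose gene name was Ndufa, Ndufb, Ndufc, Ndufs or Ndufv with a number, or Ndufab1, were taken, which gave 37 genes of the 47643 in the table, or 160 of its 115125 transcript entries. The rule used names and no measured value, but it was chosen with earlier results of these data known. Ndufb1 was not among the rows analysed here. The transcript with the largest mean estimate of each gene was 343 to 2661 bases long, with a median of 732 bases, and was under 1000 bases in 26 of the 37 genes. The same median was 2514 bases over the 19469 protein-coding genes with counts.

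Complex I takes electrons from NADH in its N module, passes them along iron-sulfur clusters to ubiquinone in its Q module, and pumps protons through its membrane arm. A set of core subunits carries out this chemistry, and many small supernumerary subunits surround and stabilise it. The core subunits of the hydrophilic arm are nuclear-encoded, while those of the membrane arm are the products of the mitochondrial mt-Nd genes. Mouse embryonic stem (ES) cells grown in serum make ATP both by glycolysis and by oxidative phosphorylation, and these subunits are housekeeping products in them.

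The RNA was purified total RNA of 5G6GR mouse ES cells, grown without feeders on gelatin with serum, leukemia inhibitory factor, puromycin and blasticidin. RT-RamDA, a method that reverse transcribes and amplifies very small amounts of total RNA, was run on 10 pg of this RNA with 5 sets of reverse transcription primer and 3 libraries of each. The sets were NSRdT (not-so-random primers, chosen to avoid priming on ribosomal RNA, plus oligo(dT)), N6dT (random hexamers plus oligo(dT)), NSR alone, N6 alone, and dT (oligo(dT) alone). A further set, called bulk, was 3 libraries from 200 ng of the same kind of RNA, depleted of ribosomal RNA and made with another kit, for which the labels give N6 as the primer. RT-RamDA libraries had 17 cycles of PCR and bulk libraries 7, so input, kit, depletion and cycles differ together between RT-RamDA and bulk and cannot be told apart. Nothing in the labels states whether the 3 libraries of a set go back to separate cultures, and p-values then measure only the spread between these libraries, which may be technical.

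Libraries held 5333546 to 10234690 estimated counts outside the spike-in sequences. Ribosomal RNA took 35.8% of them in NSRdT libraries, 48.8% in N6dT, 43.4% in NSR, 52.9% in N6, 7.02% in dT and 10.4% in bulk (means of 3). Levels are estimated counts scaled by TMM to a common library total over all 18 libraries, called scaled CPM, and fold changes are log2 values from edgeR with their standard error. A gene was called at a Benjamini-Hochberg adjusted p under 0.05 over all genes tested, and all 37 genes were tested in each of the 9 comparisons. The labelled cell type was checked with 8 pluripotency markers, whose summed level was 1663 to 3348 scaled CPM across the 18 libraries. The summed level of 16 primitive endoderm markers was 6287 in bulk replicate 2, against 349 to 839 in the other 17 libraries, so counts of complex I calls against bulk are also given without that library; its part in them was not tested.

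A pair of properties of the messages matter for reading the counts, and 2 sequences show them. The first is how short some of these mRNAs are. The Ndufa1 gene lies at X:37187588-37191163 on the minus strand. The entry that carried most of the Ndufa1 counts is 419 bases long, and its reading frame has 213 bases and 70 codons. The second is near-identical copies elsewhere in the genome. The Ndufb4 gene lies at 16:37647170-37654453 on the minus strand. The reading frame of Ndufb4 has 390 bases and 129 codons. It is identical over its whole length to the processed pseudogene Ndufb4c, so that reads from it cannot be told apart. Both sequences are from the GENCODE vM21 transcripts of GRCm38; the Ndufa1 frame is whole, the Ndufb4 frame is given from base 1 to base 240, and capitals mark start and stop codons.
Ndufa1: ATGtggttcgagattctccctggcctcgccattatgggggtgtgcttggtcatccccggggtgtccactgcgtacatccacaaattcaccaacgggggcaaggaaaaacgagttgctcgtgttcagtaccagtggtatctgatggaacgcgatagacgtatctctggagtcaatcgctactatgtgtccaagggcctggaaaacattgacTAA
Ndufb4: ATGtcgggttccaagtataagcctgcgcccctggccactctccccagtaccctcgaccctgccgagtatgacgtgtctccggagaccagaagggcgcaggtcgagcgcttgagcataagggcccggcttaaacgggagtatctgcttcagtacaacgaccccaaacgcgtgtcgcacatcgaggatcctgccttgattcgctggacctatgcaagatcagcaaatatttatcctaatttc

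All 37 entries could be matched to that annotation. The polyadenylation signal AATAAA, on the transcript strand, stood in the last 40 bases of 21 of them, or 56.8%, against 58.2% of 16538 protein-coding transcripts. With ATTAAA as an alternative the share was 75.7% for the complex I entries and 71.6% for the protein-coding ones. The median GC content was 53.1% in the complex I entries and 50.1% in the protein-coding ones. In these letters the complex I entries were close to other protein-coding transcripts, while they were shorter.

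Summed over the 37 genes, complex I messages took the largest share of the library with dT and the smallest with NSR or N6 alone at 10 pg. In CPM, counts scaled to a common total, taken outside ribosomal and mitochondrial genes, the sum was 1569 ± 60.6 in NSRdT, 1400 ± 37.0 in N6dT, 963 ± 14.8 in NSR, 772 ± 96.1 in N6, 2548 ± 112 in dT and 2096 ± 33.4 in bulk (SD, n = 3 each). The libraries of NSR and N6 lay below those of all other groups on this scale. In CPM of the whole library, ribosomal RNA included, the sum was 960 ± 30.9 in NSRdT, 684 ± 7.99 in N6dT, 527 ± 10.7 in NSR, 351 ± 42.5 in N6, 2283 ± 103 in dT and 1828 ± 20.6 in bulk. A library therefore held on average 7047, 5338, 4240, 2684, 22979 and 18315 counts of complex I in that order of groups, which sets the precision of each gene. All 37 genes had counts in every NSRdT, N6dT, dT and bulk library, 35 to 37 had counts in an NSR library and 36 or 37 in an N6 library.

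The mix of subunits shifted as well as the sum. The 11 genes of 1000 bases or more supplied 41.5% ± 1.01 of the complex I counts in NSRdT, 40.02% ± 0.347 in N6dT, 53.6% ± 2.83 in NSR, 49.3% ± 1.98 in N6, 39.0% ± 1.97 in dT and 38.9% ± 0.743 in bulk. The 7 core subunits supplied 27.4% in NSRdT, 23.1% in N6dT, 41.4% in NSR, 35.2% in N6, 23.2% in dT and 26.8% in bulk. For 1 pair of genes the shift was far larger: for every 100 counts of Ndufs1 there were 25.8 ± 2.29 counts of Ndufa1 in NSRdT, 29.1 ± 6.54 in N6dT, 0.936 ± 0.823 in NSR, 3.45 ± 1.18 in N6, 43.0 ± 25.4 in dT and 19.6 ± 1.44 in bulk. The wide spread in dT came from the first library, at 72.1, against 25.4 and 31.5 in the others. The NSR ratios rest on 9, 7 and 0 counts of Ndufa1. Ndufa1 changed most of the complex I genes when dT was added, described below, and Ndufs1 changed little. This pair therefore shows an extreme and not a typical shift. On the length measure the sets with dT lay near bulk, while every NSRdT, N6dT and dT library had more Ndufa1 per count of Ndufs1 than any bulk library.

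**Figure D1:**
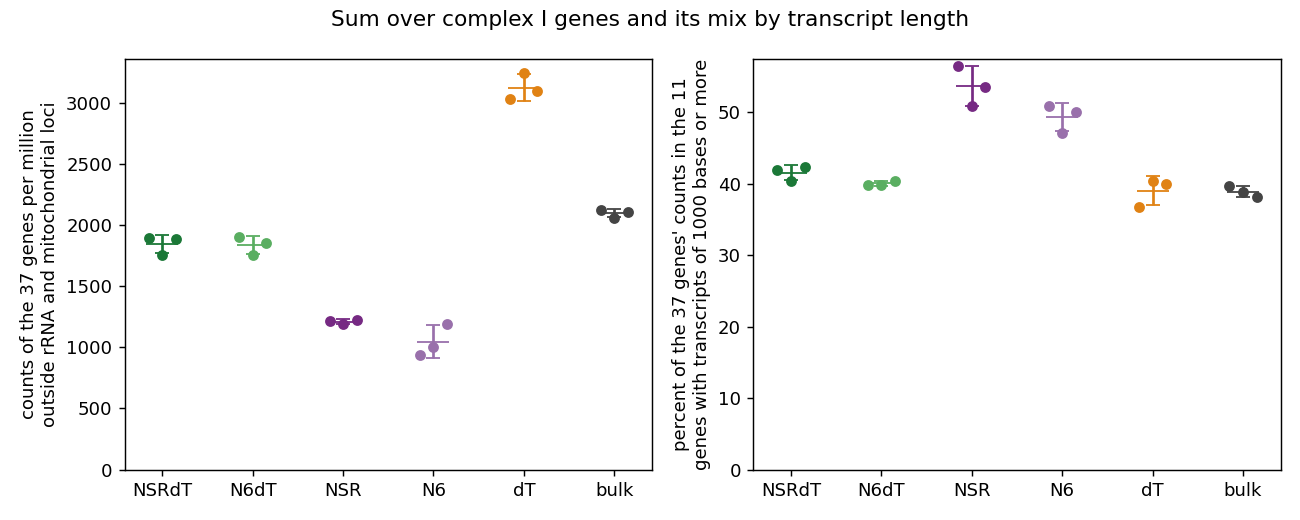
Counts of the 37 complex I genes in each library (points; the wide horizontal line is the mean and the vertical bar the SD of 3 libraries), by primer set and bulk. Left, CPM outside ribosomal and mitochondrial genes and 4 rRNA-like loci, where dT averaged 3121 and N6 1046; right, percent of the complex I counts that fell in the 11 genes of 1000 bases or more, where NSR averaged 53.6% and bulk 38.9%.

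The first comparison asked which subunits were counted more or less when the primers were random, as the mean of NSR and N6 alone, than when they were oligo(dT) alone. Of the 37 genes, 29 fell and none rose, and the fitted fold change was below 0 for all 37. Over all 15646 genes tested 17.1% were called, of which 7.56% of all genes were lower and 9.54% higher. The median log2 fold change was -1.75 for the 37 genes and 0.12 for all genes. In 30 of the 37 genes no NSR or N6 library reached the level of any dT library, a count that was not taken over all genes. With no adjustment 33 genes fell at p under 0.05, and DESeq2 called 30 lower and 0 higher. Shares of all genes under these 2 criteria are not given, here or in the comparisons below. Nor are they given for fits with a library left out or with another scaling.

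Among the core subunits of the N module the response ranged from none to a clear fall. Ndufs1, the largest subunit and carrier of several iron-sulfur clusters, had 109, 66.2 and 100.5 scaled CPM in the NSR libraries, 58.4, 42.9 and 60.8 in N6, and 58.5, 84.1 and 70.2 in dT. Its libraries overlapped and its fold change was -0.00 ± 0.21 (adjusted p = 0.998). Ndufv1, which binds NADH and the flavin, had 30.9, 37.5 and 26.2 scaled CPM in NSR, 29.0, 25.6 and 24.3 in N6, and 86.5, 90.8 and 60.8 in dT. No random-primed library reached the lowest dT library, and Ndufv1 fell by 1.46 ± 0.24 on the log2 scale (adjusted p = 0.000421). Ndufv2, which holds another iron-sulfur cluster, had 36.1, 38.5 and 33.4 scaled CPM in NSR, 24.5, 36.3 and 38.6 in N6, and 56.7, 55.8 and 62.9 in dT. Its groups were apart, with a smaller fall of 0.76 ± 0.22 (adjusted p = 0.0249), and the call was lost without N6 replicate 1, NSR replicate 3 or dT replicate 3. Over the 8 genes of the N module 5 fell, with fold changes from -2.72 to -0.00 and a median of -1.30.

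In the Q module, where ubiquinone is reduced, 6 of 8 genes fell, with a median of -1.51. Ndufs7, which holds the last iron-sulfur cluster of the chain, had 6.87, 6.30 and 8.63 scaled CPM in NSR, 17.6, 10.95 and 11.5 in N6, and 35.0, 44.1 and 20.7 in dT. These groups did not overlap and Ndufs7 fell by 1.75 ± 0.38 (adjusted p = 0.00453). Ndufs3, a cluster-free scaffold subunit, had 26.8, 12.1 and 19.3 scaled CPM in NSR, 19.5, 9.48 and 12.5 in N6, and 35.5, 25.7 and 28.7 in dT. One NSR library passed the lowest dT library, and the difference of -0.86 ± 0.37 was not called (adjusted p = 0.121). Ndufs8, another iron-sulfur subunit, had 10.6, 27.6 and 13.03 scaled CPM in NSR, 4.70, 5.65 and 10.7 in N6, and 26.2, 10.6 and 42.0 in dT, a wide scatter in which the difference of -1.26 ± 0.50 was not called (adjusted p = 0.0971). Ndufa5, a supernumerary Q module subunit with a 453-base entry, had 4.28, 0.292 and 0.586 scaled CPM in NSR, 5.09, 0.807 and 6.03 in N6, and 32.3, 25.2 and 21.1 in dT. Every random-primed library was far below every dT library, and Ndufa5 fell by 3.32 ± 0.69 (adjusted p = 0.00326).

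Of the supernumerary subunits of the membrane arm 17 of 19 fell, with a median of -2.07 and a range from -4.65 to -0.77. Ndufa1, a small subunit with a single membrane helix that complex I assembly requires, had 1.38, 1.02 and 0 scaled CPM in NSR, 1.37, 2.02 and 2.01 in N6, and 42.2, 21.4 and 22.1 in dT. The NSR values rest on 9, 7 and 0 counts and the N6 values on 7, 10 and 10, so that Ndufa1 was nearly lost from the NSR and N6 libraries, and it fell by 4.55 ± 0.59 (adjusted p = 4.37e-05). Ndufa3, another small membrane subunit with the shortest entry of all, 343 bases, had 1.68, 0 and 1.03 scaled CPM in NSR, 4.31, 4.44 and 2.61 in N6, and 17.9, 17.8 and 27.0 in dT. The groups were again apart, and Ndufa3 fell by 3.48 ± 0.67 (adjusted p = 0.00187). Ndufb2, of the distal end of the membrane arm, had 4.74, 0.584 and 3.81 scaled CPM in NSR, 4.51, 4.07 and 7.23 in N6, and 33.2, 39.9 and 20.8 in dT, and it fell by 2.96 ± 0.55 (adjusted p = 0.00138). Its highest random-primed library, at 7.23, lay well below its lowest dT library, at 20.8.

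Ndufs5, a disulfide-bonded subunit on the intermembrane space side of the membrane arm, had the largest fitted fall of all 37 genes. It had 0.306, 0 and 0 scaled CPM in NSR, 2.50, 0 and 2.85 in N6, and 7.92, 13.5 and 12.9 in dT. The 3 NSR libraries held 2 counts in all, against 489 in the 3 dT libraries. After scaling to TMM library totals this was a ratio of 0.00861, with a 95% interval from 0.00104 to 0.0313 that covers counting error only. The fitted fall was 4.65 ± 1.03 (adjusted p = 0.00512), and 3.09 (adjusted p = 0.0149) when the processed pseudogene BC002163, which shares 81% of its 31-base words with Ndufs5, was summed with it. Ndufa11, another subunit of the membrane arm, had 10.1, 10.0 and 8.91 scaled CPM in NSR, 5.17, 5.04 and 9.93 in N6, and 36.6, 32.1 and 42.2 in dT. It fell by 2.20 ± 0.34 (adjusted p = 0.000259), with no overlap. Its length in the deposited table was 2661 bases, but the same transcript has 545 bases in GENCODE vM21, so it counts as long or as short depending on the annotation.

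Ndufa10, a kinase-like subunit on the matrix face of the membrane arm, had 32.9, 36.8 and 38.5 scaled CPM in NSR, 43.7, 32.3 and 51.8 in N6, and 66.2, 120.7 and 118.6 in dT. It fell by 1.37 ± 0.23 (adjusted p = 0.000526), but with protein-coding entries alone the difference was 0.02 (adjusted p = 1.00), and most of its counts were in an entry of another class, described further on. Ndufa4, first named as a complex I subunit and now assigned to cytochrome c oxidase (complex IV), had 36.4, 67.7 and 52.7 scaled CPM in NSR, 23.9, 22.8 and 28.1 in N6, and 121.5, 97.0 and 122.4 in dT. It fell by 1.65 ± 0.20 (adjusted p = 1.72e-05), with all dT libraries above all others. Ndufab1, the mitochondrial acyl carrier protein that also serves fatty acid synthesis, had a difference of -0.34 ± 0.33 (adjusted p = 0.532) and shares sequence with 2 pseudogenes.

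Core subunits and the other genes can be set side by side from these values. Of the 7 core genes 4 fell, with a median of -0.86. Of the 30 others, which include Ndufa4, 25 fell, with a median of -2.07. The 7 core entries were 758 to 2661 bases long, against a median of 732 bases over the 37 genes. Whether length accounts for the difference was not tested. The 29 calls became 26 to 29 when 1 library at a time was left out, and 25 genes kept their call in all 9 such fits. Ndufa9, Ndufb10 and Ndufv2 were among those that lost it at least once. Scaling by library totals alone moved the median of all genes to -0.80 and that of the 37 genes to -2.69, and then all 37 fell. How many of all genes fell under that scaling is not given.

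**Figure D2:**
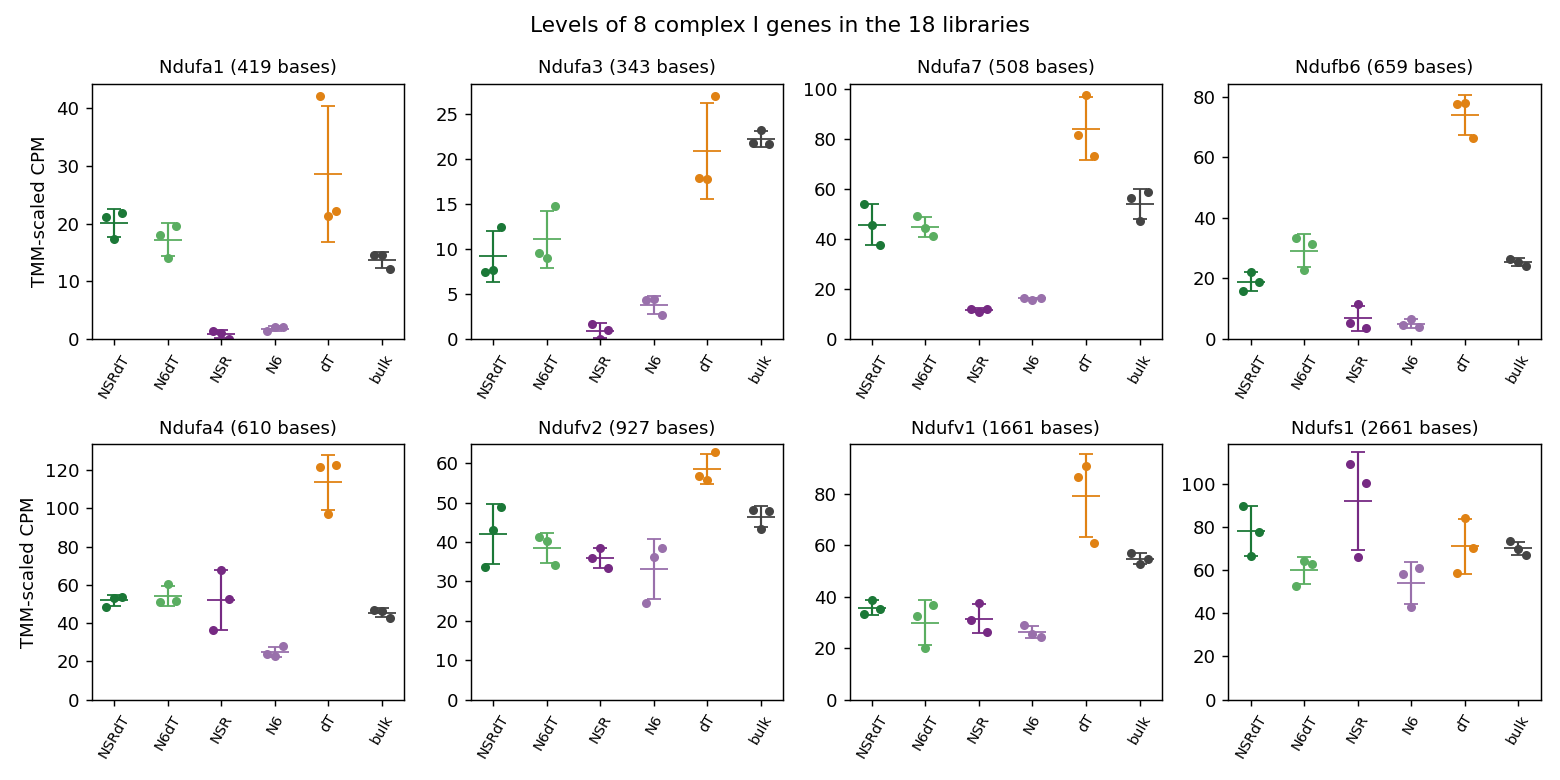
Scaled CPM of 8 complex I genes in each library (points), with the mean and SD of 3 libraries, for NSRdT, N6dT, NSR, N6, dT and bulk; Ndufb6 and Ndufa7 were added to the named genes after their values were seen. Ndufa1 averaged 0.799 in NSR and 1.80 in N6 against 28.5 in dT, while Ndufs1 averaged 91.9 in NSR, 54.0 in N6 and 70.9 in dT.

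The second comparison asked what adding oligo(dT) to random primers did, with the mean of NSRdT and N6dT set against the mean of NSR and N6. It shares the NSR and N6 libraries with the first comparison, so the values are given side by side and not as independent evidence. Of the 37 genes 11 rose and none fell, where 2.18% of 15646 genes were called, 1.8% higher and 0.377% lower. The median log2 fold change was 0.96 for the 37 genes and -0.02 for all genes, and 34 of the 37 fold changes were above 0. With no adjustment 22 genes rose, and DESeq2 called 16 higher and 0 lower.

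None of the 7 core genes was among the 11, and their median fold change was 0.19. Ndufs1 had 89.9, 66.5 and 77.7 scaled CPM in NSRdT and 52.6, 64.2 and 62.8 in N6dT, within the span of its NSR and N6 libraries, and its difference was -0.04 ± 0.17 (adjusted p = 1.00). Among the other core genes the difference was 0.00 for Ndufs8 and 0.66 for Ndufs7, and neither was called.

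Outside the core 11 of 30 genes rose, with a median of 1.15. In the membrane arm 7 of 19 rose, with a median of 1.21, and in the N and Q modules 2 of 8 each. Ndufa1 had 21.1, 17.3 and 21.8 scaled CPM in NSRdT and 18.1, 14.0 and 19.5 in N6dT, each of them several times any NSR or N6 library. It rose by 3.94 ± 0.54 (adjusted p = 0.000284), the largest change of the 37. Ndufa3 had 7.46, 7.67 and 12.5 scaled CPM in NSRdT and 9.57, 8.98 and 14.7 in N6dT, above all NSR and N6 libraries, and rose by 2.44 ± 0.60 (adjusted p = 0.0431). The other 9 genes, Ndufc2, Ndufb6, Ndufs6, Ndufa2, Ndufa7, Ndufb8, Ndufb11, Ndufa6 and Ndufc1, rose by 1.21 to 2.19.

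Some of the genes that fell most with random primers did not pass here, although their fitted differences were large. Ndufs5 had 7.68, 3.29 and 3.73 scaled CPM in NSRdT and 4.66, 7.21 and 4.24 in N6dT, above every NSR and N6 library, with a difference of 3.49 ± 0.93 (adjusted p = 0.0707). Ndufa5 had 11.3, 7.31 and 13.1 scaled CPM in NSRdT and 19.7, 17.96 and 9.59 in N6dT, also above every NSR and N6 library, with a difference of 2.30 ± 0.61 (adjusted p = 0.0700). Ndufb2 had a difference of 1.59 ± 0.48 (adjusted p = 0.145). Leaving out 1 library at a time gave 8 to 11 calls, and 7 genes kept theirs throughout, while Ndufa2, Ndufa3, Ndufa6 and Ndufb11 lost it at least once.

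Between the random primers, NSR with NSRdT set against N6 with N6dT, no complex I gene was called, where 0.173% of all genes were, 0.0447% higher and 0.128% lower. With no adjustment 3 genes were higher and 2 lower, DESeq2 called 0 in either direction, and the median was 0.08. Ndufs1 had the smallest adjusted p among the genes above 0, at 0.57 ± 0.17 (adjusted p = 0.551), and Ndufs5 the lowest difference, at -2.04 ± 0.88 (adjusted p = 0.913). The interaction, which asks whether adding dT acted differently on NSR and N6, called no complex I gene either, where 0.0639% of all genes were called, 0.0447% higher and 0.0192% lower. With no adjustment 1 gene was above 0 and 2 were below, and DESeq2 called 0. These tests do not show that the primers act alike: for Ndufs5 the interaction was 3.82 ± 1.76, for Ndufa2 -2.32 ± 0.80 and for Ndufa4 -1.14 ± 0.34.

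Transcript length was followed through each comparison. Across the 37 genes, the fold change of random primers against dT correlated with length at a Spearman's rho of 0.52, and at 0.43 across 12517 protein-coding genes. Genes of one library set share that library's depth and primers, so these values are descriptions. Under 500 bases 4 of 5 complex I genes fell, with a median of -3.32, and from 500 to 1000 bases 16 of 21, with a median of -2.07. From 1000 to 1500 bases it was 4 of 5 with a median of -1.07, and from 1500 to 3000 bases 5 of 6 with a median of -1.42. The share of protein-coding genes called in either direction was 53.4%, 42.3%, 24.9% and 11.8% in those classes, and their median fold change was 0.06, -1.30, -0.81 and -0.32. The share that fell is not given, so these percentages are not on the measure used for the complex I genes. The median of the complex I genes was below that of protein-coding genes in each of the 4 classes.

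For the addition of dT, rho was -0.59 across the 37 genes and -0.22 across protein-coding genes. The median of complex I genes was 2.30 under 500 bases, 1.00 from 500 to 1000, 0.51 from 1000 to 1500 and 0.38 from 1500 to 3000, and 2 of 5, 8 of 21, 1 of 5 and 0 of 6 rose. Protein-coding genes of those classes had medians of 0.17, 0.46, 0.23 and 0.05, and 21.6%, 14.6%, 3.94% and 0.849% of them were called in either direction. The share of them that rose is not given. The difference of NSR and N6, with no gene called, still ran with length among these genes, at a rho of 0.42 against 0.04 across protein-coding genes. With the lengths of GENCODE vM21, where 29 of the 37 entries have the same length, rho was 0.59 for random primers against dT and -0.64 for the addition of dT. Length is itself estimated: the entry with most counts was classed as nonsense-mediated decay for Ndufa3 and Ndufa10 and as a processed transcript for Ndufa5.

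**Figure D3:**
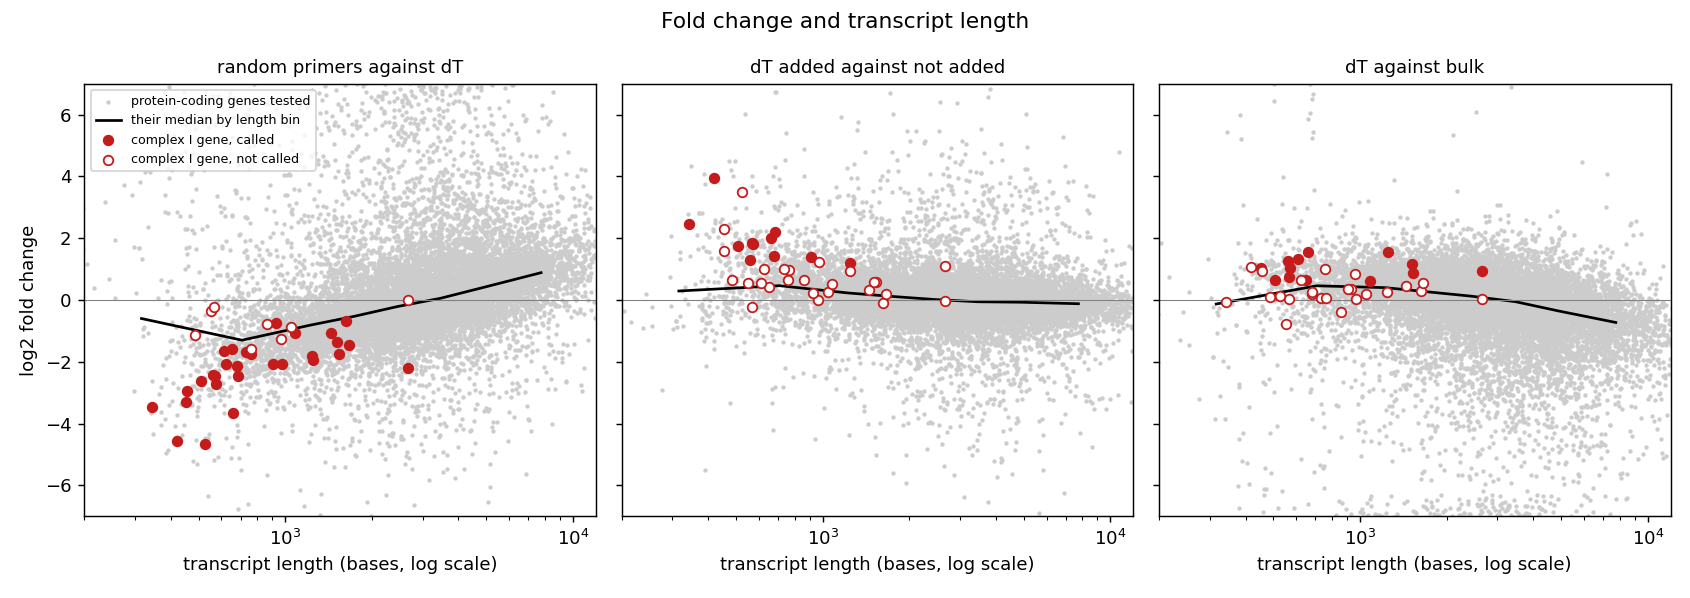
Log2 fold change from edgeR against transcript length in bases (log axis) for random primers against dT, dT added against not added, and dT against bulk. Grey points are protein-coding genes tested, the black line is their median by length class, and red points are the 37 complex I genes, filled where called; genes beyond the vertical range are not drawn. In the first panel the complex I genes under 500 bases have a median of -3.32 and those of 1500 to 3000 bases -1.42.

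Each primer set was then set against bulk, and all 5 comparisons share the same 3 bulk libraries. N6 alone had 16 genes lower and none higher, where 7.21% of 15207 genes were called, 3.9% lower and 3.31% higher. NSR alone had 15 lower and none higher, where 8.67% of 15418 genes were called, 4.65% lower and 4.01% higher. The median was -1.29 with N6 against -0.03 for all genes, and -1.18 with NSR against -0.03. With no adjustment 30 genes were lower with N6 and 26 with NSR, and DESeq2 called 23 lower in each. Most calls were in the membrane arm, with 11 of its 19 genes in each set. Of the core genes, Ndufv1 was lower in N6, and Ndufv1 and Ndufs7 were lower in NSR.

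Ndufa1 had the lowest called value with N6, at -2.92 ± 0.38 (adjusted p = 0.00525), with bulk levels of 14.5, 14.6 and 12.1 scaled CPM. Ndufs5 had the lowest with NSR, where 2 counts in 3 libraries stood against 532 in bulk. After scaling to TMM library totals this was a ratio of 0.00936, with a 95% interval from 0.00113 to 0.0340 for counting error. The fitted value of Ndufs5 was -6.58 ± 0.98 (adjusted p = 0.00899), and -3.88 (adjusted p = 0.0788) when summed with its copy BC002163. Ndufa3, at 21.8, 23.2 and 21.7 scaled CPM in bulk, was lower by 4.61 with NSR (adjusted p = 0.0199) and by 2.54 with N6 (adjusted p = 0.00434). Ndufs1, at 73.3, 69.5 and 67.1 in bulk, differed by 0.40 ± 0.20 with NSR and -0.36 ± 0.17 with N6, and neither was called. These counts fell when a bulk library was left out. Without bulk replicate 1, 2 or 3 the count was 3, 4 and 4 for N6, and 3 each time for NSR. The share of all genes called in those fits is not given, so no background stands beside the fall. Under every scaling tried no complex I gene was called higher than bulk with N6 or NSR.

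The dT libraries lay on the other side of bulk. With dT 13 genes were higher than in bulk and none lower, where 18.8% of 15708 genes were called, 6.9% higher and 11.9% lower. The median was 0.54 for the 37 genes and -0.19 for all genes, and DESeq2 called 16 higher and 1 lower. No core gene was among the 13, while 6 of 19 in the membrane arm were, 3 of 8 in each of the N and Q modules, and Ndufa4. Ndufc1, a small membrane subunit, had 47.6, 61.1 and 42.2 scaled CPM in dT against 17.6, 17.2 and 16.8 in bulk, with no overlap, and was higher by 1.56 ± 0.20 (adjusted p = 0.00741). Ndufa4, with 47.1, 46.5 and 42.9 scaled CPM in bulk, was higher by 1.33 ± 0.14 (adjusted p = 0.00347). Among the core genes Ndufs1 differed by 0.03 ± 0.16 and Ndufs7 by 1.01 ± 0.31 (adjusted p = 0.932 and 0.0727). Spearman's rho with length was -0.02 across the 37 genes, against -0.32 across 12674 protein-coding genes. The count was 2, 3 and 2 without bulk replicate 1, 2 or 3. With library totals outside ribosomal and mitochondrial genes it was 4 higher and 1 lower, where the median of all genes was -0.49. For none of these fits is the share of all genes called given.

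With a random primer and dT together, no complex I gene was called against bulk in either set. For NSRdT 5.28% of 15553 genes were called, 2.69% higher and 2.58% lower, and 2 complex I genes were higher and 9 lower with no adjustment, while DESeq2 called 1 higher and 6 lower. For N6dT 4.79% of 15234 genes were called, 2.7% higher and 2.09% lower, and 2 complex I genes were higher and 11 lower with no adjustment, while DESeq2 called 1 higher and 3 lower. The shares of all genes are for adjusted edgeR calls, and none is given for the unadjusted or DESeq2 counts. The medians were -0.22 with NSRdT and -0.37 with N6dT, and the ranges ran from -1.25 to 0.83 and from -0.97 to 0.83. Closest to the threshold with NSRdT were Ndufc1 at 0.83 ± 0.18 and Ndufv1 at -0.60 ± 0.13 (adjusted p = 0.0508 for both) and Ndufa3 at -1.25 ± 0.28 (adjusted p = 0.0527). With N6dT they were Ndufc1 at 0.83 ± 0.20 (adjusted p = 0.0655) and Ndufv1 at -0.84 ± 0.23 (adjusted p = 0.0947). Leaving out any of the NSRdT libraries gave 3 calls, and leaving out N6dT replicate 2 or 3 gave 2 and 4. Ndufa1, nearly lost in NSR and N6, differed from bulk by 0.56 ± 0.22 with NSRdT (adjusted p = 0.232) and 0.36 ± 0.25 with N6dT (adjusted p = 0.523), and with library totals alone its N6dT value turned to -0.84. Without bulk replicate 2 the count was 0 in both sets. With library totals alone 27 genes were called with NSRdT and 35 with N6dT, all lower, where the median of all genes was -0.75 and -1.23. With totals outside ribosomal and mitochondrial genes 7 and 12 were called, all lower. The share of all genes called under these totals is not given, so whether the complex I counts exceed it is not shown.

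**Figure D4:**
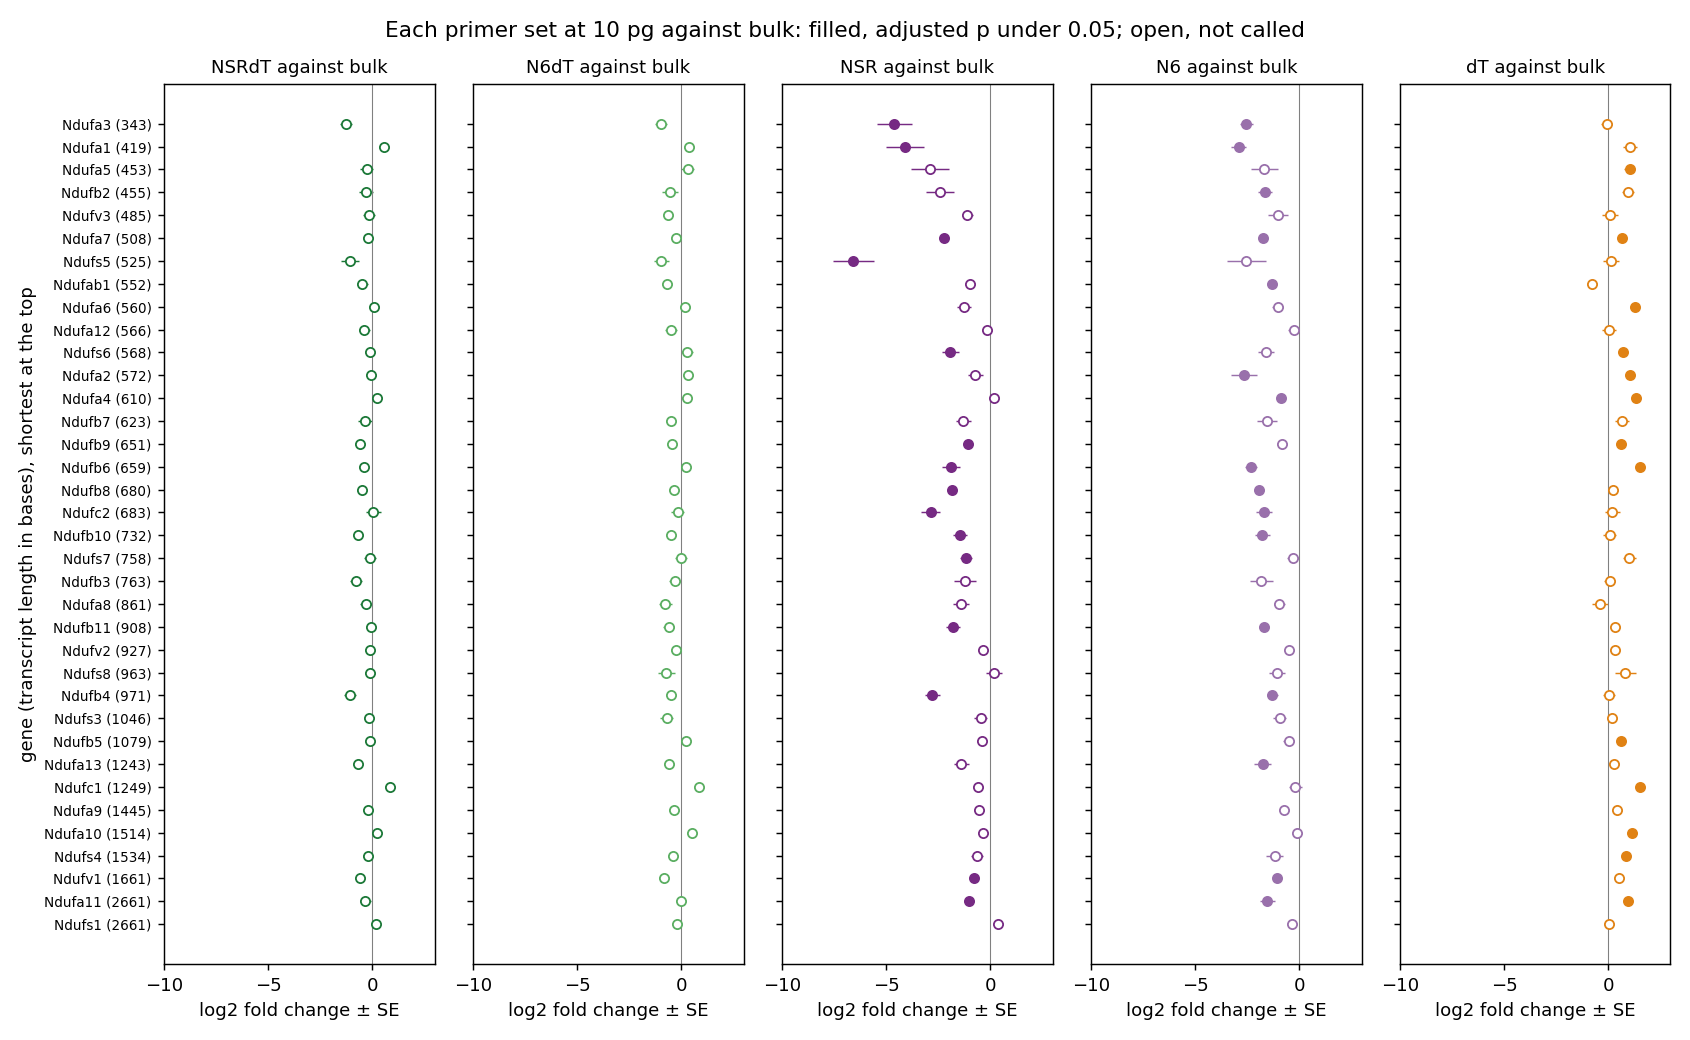
Log2 fold change against bulk for 36 of the 37 complex I genes, ordered from the shortest transcript at the top to the longest at the bottom, in NSRdT, N6dT, NSR, N6 and dT; filled points were called at an adjusted p under 0.05. The called points are 0 in NSRdT, 0 in N6dT, 15 lower in NSR, 16 lower in N6 and 13 higher in dT.

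Levels of different genes can be compared only per length, as TPM, in which counts are divided by transcript length and scaled to a common total. In bulk, Ndufa7, a Q module subunit, was highest at 250.1 ± 27.2 TPM, followed by Ndufa4 at 199 ± 10.7, and the median gene had 69.8 TPM. Ndufa11 was lowest at 16.99 ± 0.464, a value that rests on its long deposited length. In NSRdT, N6dT, NSR, N6 and dT the highest gene was Ndufa4, at 136 ± 8.34, 90.9 ± 12.0, 105 ± 36.4, 36.4 ± 4.87 and 392 ± 51.4 TPM. The lowest was Ndufa11 in NSRdT, N6dT, N6 and dT, at 8.03, 6.63, 2.07 and 26.3 TPM, and Ndufs5 in NSR at 0.157 TPM. Neighbours in the order of levels mostly overlapped: of 36 neighbouring pairs, 36 overlapped between libraries in NSRdT, 35 in N6dT, 35 in NSR, 36 in N6, 35 in dT and 28 in bulk.

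The deposited table also splits each gene over transcript entries, and these splits differed between the groups. Over all 37 genes protein-coding entries held 83.4% ± 0.101 of the counts in NSRdT, 82.2% ± 1.502 in N6dT, 82.2% ± 2.24 in NSR, 78.8% ± 2.43 in N6, 85.5% ± 1.51 in dT and 85.6% ± 0.478 in bulk. Retained-intron entries held 4.65%, 6.02%, 8.29%, 8.31%, 2.86% and 7.71% in the same order, lowest where dT primed alone. An estimate over entries that share most of their sequence depends on the quantifier, which is not given in the sources used here.

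Ndufa10 had most of its RT-RamDA counts in the nonsense-mediated decay entry Ndufa10-004 of 1514 bases, at 79.8% ± 6.05 in NSRdT, 75.1% ± 6.11 in N6dT, 56.3% ± 4.71 in NSR, 56.5% ± 13.1 in N6 and 84.8% ± 8.46 in dT, against 42.8% ± 0.711 in bulk. Its protein-coding entry Ndufa10-001 of 2020 bases held 5.34% ± 7.82, 14.7% ± 4.23, 15.9% ± 15.4, 27.3% ± 16.95 and 9.33% ± 9.95 in those sets, against 48.2% ± 1.68 in bulk. Ndufa10 was among the 13 genes higher with dT than in bulk, at 1.15 ± 0.25 (adjusted p = 0.0227), and with protein-coding entries alone it was -1.28 (adjusted p = 0.591). Its call in both comparisons was thus lost when other entries were left out.

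Ndufa9, a Q module subunit related to short-chain dehydrogenases, had 97.3% ± 0.190 of its bulk counts in Ndufa9-001 of 1445 bases. That entry held 46.6% ± 32.5 in NSRdT, 58.5% ± 15.3 in N6dT, 12.1% ± 16.2 in NSR, 7.496% ± 12.98 in N6 and 57.3% ± 20.4 in dT. The shorter Ndufa9-003 of 1238 bases took most of the rest, with 77.3% ± 23.7 in NSR and 85.4% ± 9.96 in N6 against 0.531% ± 0.921 in bulk. Ndufb5, of the distal membrane arm, had 14.2% to 26.3% on average in the 353-base entry Ndufb5-004 in the RT-RamDA sets and 0 in bulk. Ndufa9 and Ndufb5 were chosen after their values were seen.

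**Figure D5:**
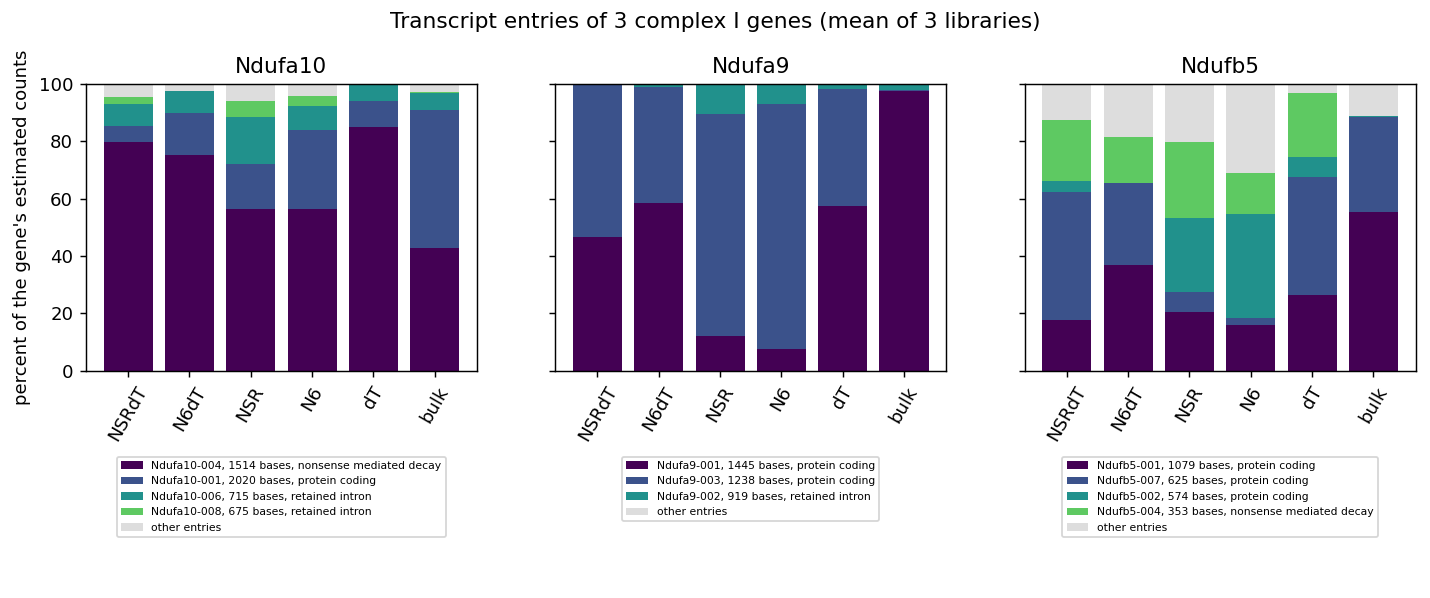
Percent of the counts of Ndufa10, Ndufa9 and Ndufb5 held by each transcript entry, as the mean of 3 libraries, for NSRdT, N6dT, NSR, N6, dT and bulk. Ndufa9-001 holds 97.3% in bulk and 7.496% in N6.

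Of the 37 genes 6, Ndufa12, Ndufab1, Ndufb4, Ndufb8, Ndufs3 and Ndufs5, share at least 50% of the 31-base words of 8 other genes' sequences. For Ndufb8 this is Gm20538, a protein-coding gene that overlaps it on the same strand and not a copy elsewhere. It held 0 counts in each RT-RamDA set and 0.877 in bulk. Gm12251, the copy of Ndufs3, held 0 to 2.13 counts in a set, against 208.7 to 1341 for Ndufs3. The pseudogene Ndufb4c, shown above to equal the Ndufb4 reading frame, was credited with 40.2% of the counts of the pair in NSRdT, 33.5% in N6dT, 53.3% in NSR, 42.5% in N6, 43.8% in dT and 38.4% in bulk. BC002163, which copies Ndufs5, had 55.9%, 54.1%, 90.9%, 68.3%, 45.8% and 34.0% in the same order. Gm15920, a copy of Ndufa12, the N module subunit, had 33.4%, 34.8%, 1.44%, 9.36%, 38.2% and 41.6%, so its share was lowest in NSR and N6 and highest in bulk. Summed with its copy, Ndufa12 differed by -0.85 between random primers and dT (adjusted p = 0.0732), against -0.24 alone, and it became lower with NSR than in bulk, by 0.91 (adjusted p = 0.0403). Summing all 8 sequences with their genes left 29, 11, 16, 15 and 13 calls in the comparisons above. Exons of 16 of the 37 genes overlap another gene, 3 of them on the same strand and 14 on the opposite one, and whether counting used strand is not given in the sources used here.

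Among other genes of the pathway, the mitochondrially encoded subunits were listed apart from the nuclear ones. They form the proton-pumping core of the membrane arm and their mRNAs are made and processed inside mitochondria. With random primers against dT, 5 of 7 were higher and 1 lower on the TMM scale, with a median of 0.52; with library totals alone the signs of 4 of the 5 turned, and 1 was called higher and 5 lower. The 5 were mt-Nd4l at 1.70, mt-Nd1 at 0.85, mt-Nd5 at 0.71, mt-Nd4 at 0.52 and mt-Nd6 at 0.37, while mt-Nd2 at 0.08 was not called. Under each of the scalings tried these 5 stood above the median of all genes, and the median of the 37 nuclear genes stood below it. With the addition of dT, mt-Nd2 fell by 0.25 and mt-Nd5 by 0.23 on the TMM scale (adjusted p = 0.00892 and 0.0104), and neither was called with library totals alone or with totals outside ribosomal and mitochondrial genes.

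mt-Nd3 alone fell, by 4.35, and rose by 4.32 with the addition of dT. Its levels were 31.8 ± 4.88 scaled CPM in NSRdT, 32.8 ± 4.38 in N6dT, 1.22 ± 0.798 in NSR, 2.15 ± 1.85 in N6, 33.1 ± 4.48 in dT and 149 ± 4.64 in bulk. It shares 98.1% of its 31-base words with the nuclear pseudogene Gm28438, and summed with it the levels were 634 ± 37.7, 620 ± 15.4, 645 ± 17.4, 508 ± 55.0, 495 ± 41.1 and 300 ± 31.5 in that order. Summed with the copy, the NSR libraries were all above the dT libraries and those of N6 overlapped them. mt-Nd4l and mt-Nd4 share 98.9% and 62.8% of their words with such copies.

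Assembly factors build complex I and leave it afterwards, and 17 of the 21 listed were in the table. With random primers against dT 1 fell and none rose, with a median of -0.70, and adding dT gave no call; with library totals alone 11 were lower. Tmem126a, which acts in membrane arm assembly, had 16.2, 10.5 and 8.90 scaled CPM in NSR, 13.1, 6.86 and 18.3 in N6, and 31.5, 31.4 and 50.2 in dT, with no overlap, and fell by 1.61 ± 0.36 (adjusted p = 0.00591). Tmem261 came next, at -1.71 ± 0.61 (adjusted p = 0.0672). Acad9, an assembly factor related to acyl-CoA dehydrogenases, and Ndufaf4 differed by 0.08 ± 0.31 (adjusted p = 0.901) and -0.57 ± 0.53 (adjusted p = 0.513).

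The nuclear subunits of complexes II to V, which take the electrons on to oxygen and make ATP, were counted in the same fits. Of 39 genes 37 fell with random primers against dT, with a median of -2.10, and 24 rose with the addition of dT, with a median of 0.99. Against bulk 0 were higher and 6 lower with NSRdT, 1 and 4 with N6dT, 0 and 26 with NSR, 1 and 23 with N6, and 22 and 0 with dT. No test of a difference between these lists and complex I was run.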

How the data were processed

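The authors deposited 1 table of estimated counts, which they had made from the reads by assigning them to GENCODE transcripts, per the file headers, where each row name holds a transcript, a gene and a length. The build was mm10 and base calls were converted with bcl2fastq 2.16.0.10, per the submitters' processing notes. For aligner, quantifier and strand, the sources used here give nothing. All 18 value columns were used, and 92 spike-in entries were kept out.

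Estimated counts were summed per gene and rounded to whole numbers for testing. The quasi-likelihood F test of edgeR 4.0.16 (R 4.3.3; TMM scaling, filterByExpr, two-sided) was used, with Benjamini-Hochberg adjustment over every gene that passed the filter. All 15 RT-RamDA libraries entered a common fit for the 4 primer contrasts, whereas a set and bulk were fitted as 6 libraries. The standard error is the fold change divided by the square root of F. DESeq2 1.42.0 was an alternative. TPM used the deposited transcript lengths. Ribosomal genes are those annotated as such and Gm42418, Gm26917 and Gm15564; the 4 rRNA-like loci are Lars2, Mir6236, AA474408 and Gm15662.

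Named genes are the 7 core subunits, the 4 shortest, 4 longest and 4 most abundant genes, and the extreme called gene of each comparison. Results for 1 of these genes are not reported here, though it is in the counts and medians. Members, roles and other lists were chosen with earlier results of these data known. The series text counts 12 RT-RamDA samples and 15 are listed; all 15 were used. Fractional estimates leave counting intervals approximate.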

Additional observations from a re-analysis of the deposited data

How the results depend on the processing

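Random primers against dT gave 25 to 37 calls, all lower, over the alternatives run; protein-coding entries kept 24 of the 29 and gained 1, and library totals alone kept 29 and gained 8. Counts against bulk moved with the scaling and with the bulk library left out. Shares of all genes called under the alternatives are not given, so these counts have no background beside them. With library totals alone, which moved the median of all genes to -0.80 for random primers against dT and to -0.75, -1.23, -1.03, -1.39 and -0.45 for NSRdT, N6dT, NSR, N6 and dT against bulk, the counts were 27, 35, 36, 37 and 5 (4 higher and 1 lower), and adding dT gave 18 and NSR against N6 3. With totals outside ribosomal and mitochondrial genes they were 7, 12, 24, 29 and 5, and NSRdT had 1 with RLE factors and 1 with totals also outside 4 rRNA-like loci, an alternative chosen after seeing the data, as were the GENCODE vM21 lengths. No filter gave 8 for NSR, 9 for N6 and 7 for dT, protein-coding entries 6 for N6 and 7 for dT, DESeq2 7 for NSRdT, 4 for N6dT and 23 for NSR, and 1 fit of all 18 libraries 5 for dT. Replicate numbers were not shown to pair libraries (residual correlations -0.050 to 0.038 over 6866 genes; 6 of 18 libraries matched their own number best); with a replicate block NSR had 6, N6 8, dT 3, random primers against dT 28, adding dT 10, and the others 0.

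Leaving out 1 library gave 26 to 29 calls for random primers against dT, 8 to 11 for adding dT, 0 to 3 for NSRdT against bulk, 0 to 4 for N6dT, 3 to 20 for NSR, 3 to 20 for N6 and 2 to 17 for dT, and 0 for NSR against N6 and the interaction. Correlations with length ranged from 0.50 to 0.54 for random primers against dT, -0.60 to -0.56 for adding dT, 0.38 to 0.47 for NSR against N6, -0.45 to -0.37 for the interaction, and against bulk 0.029 to 0.17 for NSRdT, -0.052 to 0.027 for N6dT, 0.51 to 0.63 for NSR, 0.46 to 0.55 for N6 and -0.073 to 0.040 for dT. With the longest protein-coding transcript they were 0.54, -0.53, 0.32, -0.16, -0.063, -0.18, 0.46, 0.46 and -0.20 in that order. Weighted lengths gave 0.50 for NSR against N6, -0.30 for the interaction, 0.0028 for NSRdT, -0.21 for N6dT, 0.50 for NSR, 0.42 for N6 and -0.10 for dT; vM21 lengths 0.59, -0.64 and -0.33 for random primers, adding dT and the interaction, -0.049 for N6dT, 0.53 for N6 and -0.062 for dT.

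The summed share in CPM was 1308, 1151, 791, 610, 2178 and 1794 for NSRdT, N6dT, NSR, N6, dT and bulk from protein-coding entries, and 1844, 1836, 1209, 1046 and 3121 in the RT-RamDA sets also outside the 4 loci. Signs turned for Ndufa10 with protein-coding entries (0.015 for random primers, -1.28 for dT against bulk), and with library totals alone for Ndufa4 at -0.79 and Ndufs1 at -0.61 with NSR; Ndufa10 at -0.51, Ndufa4 at -0.51, Ndufa6 at -0.66 and Ndufs1 at -0.54 with NSRdT; and Ndufa1 at -0.84, Ndufa10 at -0.71, Ndufa11 at -1.20, Ndufa2 at -0.86, Ndufa4 at -0.91, Ndufa6 at -0.99, Ndufb5 at -0.98, Ndufb6 at -0.97 and Ndufs6 at -0.92 with N6dT, all against bulk. The cause of these changes was not tested, beyond the entries and totals that define them. Low counts limit Ndufa1, Ndufa3 and Ndufs5, of which NSR libraries held 0 to 11 counts each.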
